A study of Mus musculus with 10 samples.

Results

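The genes described here are 9 genes of MHC class I antigen presentation, H2-K1, H2-D1, B2m, Tap1, Tap2, Tapbp, H2-T23, H2-M3 and Nlrc5, chosen by gene symbol. All 9 were found among the 24421 genes of the authors' deposited table. All 9 passed the authors' filter on low genes and were among the 16050 genes with an adjusted p. The comparison was between olfactory epithelium of untreated C57BL/6 mice labelled Apoe4 (6 libraries) and Apoe3 (4 libraries), human alleles of the gene for the lipid carrier apolipoprotein E. Every animal was 6 months old, and the labels call the libraries biological replicates. How the alleles were placed in the mouse genome, and whether the mouse gene was removed, is not given in the sources used here, and the labels give no sex. Poly(A)-selected RNA of whole olfactory epithelium, the sensory lining of the nose, was sequenced in read pairs of 150 bases.

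MHC class I molecules display short peptides from inside a cell to CD8+ T cells and natural killer cells. A polymorphic heavy chain pairs with beta-2-microglobulin in the endoplasmic reticulum, where the transporter TAP delivers peptides and tapasin helps to load them. The pathway is induced by interferons, and NLRC5 is its main transcriptional activator. In the nose, class I expression is best known from immune and epithelial cells, and a separate group of nonclassical class I genes is known from vomeronasal sensory neurons.

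None of the 9 genes differed between Apoe4 and Apoe3 at an adjusted p under 0.05 in the DESeq2 results deposited by the authors. No gene of the 9 was higher and none was lower, against 0.324% of all 16050 genes tested called higher, 0.455% called lower and 0.779% called in either direction. At an unadjusted p under 0.05 the count was also 0 of 9 in each direction, against 4.54% of all genes higher and 5.76% lower. Of the 9 log2 fold changes, 8 were below 0, against 48.9% of all genes tested. Their median was -0.11 and that of all genes tested was 0.00, both as log2 fold changes from the authors' deposited table, where positive means higher in Apoe4. The 9 genes were chosen with these results known, so this median carries no test.

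The promoters of 4 of the genes hold the same paired motif. These are shown because the pair is part of the known docking platform through which NLRC5 and its partner proteins act on class I genes. The other parts of that platform were not searched. RefSeq promoter windows of GRCm38.p6, 250 bases before to 50 after a gene's start, were matched for 7 of the 9 genes. The H2-K1 pair is placed against the RefSeq start at 34000347, and the outermost start RefSeq gives for that gene, 34000619, lies upstream of the pair. In H2-K1, H2-D1, B2m and H2-M3 the letters TGACG, the core of the X2 box, were followed after exactly 20 bases by ATTGG, the core of the Y box. Both strands were searched, and the pair was found in 27 of 27025 genes with a promoter window, or 0.0999%. The spacing was chosen after reading the windows of these genes, and capitals mark the pair.
H2-K1, chr17:34000359-34000388, minus strand: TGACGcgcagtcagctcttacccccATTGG
H2-D1, chr17:35262993-35263022, plus strand: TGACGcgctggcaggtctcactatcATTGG
H2-M3, chr17:37270188-37270217, plus strand: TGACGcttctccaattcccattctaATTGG
B2m, chr2:122147609-122147638, plus strand: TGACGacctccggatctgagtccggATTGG

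Between the paired letters, H2-K1 and H2-D1 shared 13 of the 20 bases by position, H2-D1 and H2-M3 9, H2-K1 and H2-M3 7, and B2m between 2 and 5 with the other three. Upstream of its pair the H2-K1 promoter also held GGGATTCCC, a kappa B site core found in 0.414% of genes with a window, and TTTCNNTTC, an interferon response element-like run found in 8.68%. The stretch from the first of these motifs to the pair was 99 bases long and was identical to that of H2-D1 at 88 positions.

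The interferon response element-like run was also present in H2-M3, and both it and the kappa B core in H2-D1. B2m held neither of those runs. In Tap1 the window held TGACG, which 23.05% of genes hold, but not the spaced pair, and in Tapbp and H2-T23 it held ATTGG, which 41.1% of genes hold, without TGACG. Of the 27 genes with the pair, 24 were tested and none was called by the authors' test (3, Nfe2l1, BC051142 and Hspa14, had an unadjusted p under 0.05). Log2 fold changes were below 0 for 14 of the 24, with a median of -0.03. The 24 include H2-K1, H2-D1, B2m and H2-M3 themselves, all below 0, so these values do not describe other genes alone. A match of letters describes these windows only.

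Levels per length spanned a wide range. Beta-2-microglobulin (B2m), the invariant light chain, had the highest, at 2467 mean normalized counts per kb of its longest coding transcript. H2-K1, a classical heavy chain that presents peptides to CD8+ T cells, stood next at 2195 per kb. Tapbp, which codes for tapasin, had 950.2 per kb. H2-T23, the nonclassical heavy chain Qa-1 that engages natural killer cell receptors, had 524 per kb. H2-D1, the other classical heavy chain, had 318 per kb, so H2-K1 lay well above its classical partner. The TAP transporter subunits Tap2 and Tap1 stood at 163 and 76.0 per kb. H2-M3, which presents N-formylated peptides, had 39.6 per kb, and the activator Nlrc5 was lowest at 7.21 per kb. These levels are averages over all 10 libraries computed from the authors' deposited means. With no values for single libraries used here, neighbours in this order, such as B2m and H2-K1, could not be set against the spread over animals.

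**Figure D1:**
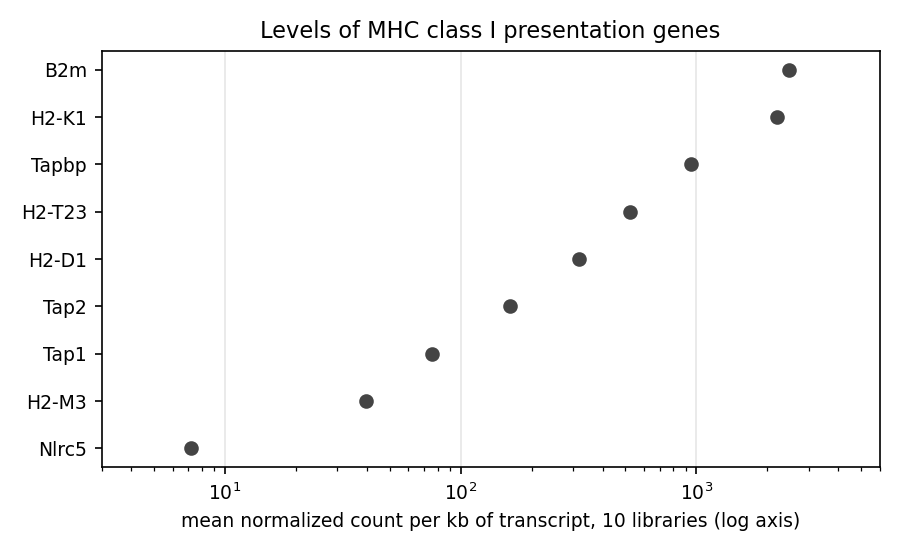
Mean normalized count per kb of the longest coding transcript (log axis) for the 9 MHC class I presentation genes, 1 point per gene, averaged over all 10 libraries. B2m (2467) and H2-K1 (2195) are highest and Nlrc5 (7.21) is lowest.

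Nucleotide sequence was largely private to each of the 9 genes at the read length. Of all 150-base words in the longest coding GENCODE vM21 transcript, H2-D1 shared 1.79% with another gene (35 of 1953, all with H2-Q1) and H2-T23 0.831% (11 of 1323, all with Gm7030). The other 7 genes shared none. Exons of Tap1 overlapped those of Psmb9 on the opposite strand over 212 bases, and exons of Tapbp overlapped those of Zbtb22 on the same strand over 149 bases. Noncoding genes on the opposite strand overlapped Tapbp over 904 bases (Gm19412, 24.9% of its exon bases) and Tap2 over 533 (Gm15821, 14.1%) and 165 (Gm20496). None of these noncoding genes was in the authors' deposited table. Nlrc5 overlapped 9330175E14Rik, also on the opposite strand, over 78 bases. The strand setting of the authors' counting is not given in the sources used here, so reads in those stretches could have been assigned to either gene or dropped.

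The classical heavy chains both stood below 0. H2-K1 (chromosome 17, 33996012 to 34000619) had a mean normalized count of 3554 in the authors' deposited table, and its log2 fold change was -0.10 ± 0.08 (SE, adjusted p = 0.725). Its level derived from that mean and the fold with shrinkage undone, as for every derived level here, was 3429.5 in Apoe4, against 3740.1 in Apoe3. H2-D1 (chromosome 17, 35263094 to 35267497) had a mean of 668 and a log2 fold change of -0.15 ± 0.09 (SE, adjusted p = 0.565) per the authors' deposited table. Its derived level was 630.2 in Apoe4 and 725 in Apoe3. The 95% intervals of both folds include 0.

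The light chain gave the smallest p of the 9. B2m (chromosome 2, 122147687 to 122153082) had a mean normalized count of 2121 and a log2 fold change of -0.17 ± 0.09 (SE, unadjusted p = 0.0696, adjusted p = 0.526) per the authors' deposited table. Its derived level was 1979 in Apoe4, against 2335 in Apoe3. The authors' folds were shrunk towards 0, and undoing this gave an approximate log2 fold change of -0.24 for B2m, with a 95% interval from -0.50 to 0.02. In linear terms the interval ran from 0.708-fold to 1.01-fold. Undoing the shrinkage has 2 solutions, and the one with the smaller error was taken throughout. The other solution would put the log2 fold change at -0.61 for B2m, -0.49 for H2-K1, -0.63 for H2-D1, -0.55 for Tap1, -0.30 for Tap2, -0.40 for H2-T23 and 0.23 for Tapbp, with larger errors, so the unshrunken intervals and the derived levels rest on that choice. Both solutions keep the sign of the deposited fold by construction, so their shared direction is no check on the choice.

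The peptide supply genes lay on both sides of 0. Tap1 (chromosome 17, 34187556 to 34197225) stood at -0.16 ± 0.10 (SE, adjusted p = 0.562) per the authors' deposited table, and its derived level was 209.8 in Apoe4 and 246 in Apoe3. Its partner Tap2 (chromosome 17, 34204479 to 34216321), the other subunit of the same transporter, was at -0.06 ± 0.08 (SE, adjusted p = 0.856) per the authors' deposited table, with derived levels of 549 in Apoe4 and 578 in Apoe3. Tapbp (chromosome 17, 33919478 to 33929290) was the only gene of the 9 above 0, at 0.03 ± 0.08 (SE, adjusted p = 0.912) per the authors' deposited table. Its derived level was 2785 in Apoe4, against 2708 in Apoe3. With shrinkage undone the interval of Tapbp ran from 0.912-fold to 1.16-fold by the solution taken.

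H2-M3 and the activator Nlrc5 had the largest deposited standard errors of the 9. H2-T23 (chromosome 17, 36029977 to 36032701) had a mean of 771 and a log2 fold change of -0.11 ± 0.09 (SE, adjusted p = 0.727) per the authors' deposited table. Its derived level was 738 in Apoe4 and 819 in Apoe3. H2-M3 (chromosome 17, 37270234 to 37274485) had a mean of 57.0 and stood at -0.04 ± 0.10 (SE, adjusted p = 0.938) per the authors' deposited table. Nlrc5 (chromosome 8, 94434335 to 94527272) had a mean of 54.7 and stood at -0.15 ± 0.11 (SE, adjusted p = 0.663) per the authors' deposited table. The error of Nlrc5 lay at the ceiling of all errors in the table, 0.105, and there undoing the shrinkage about doubled the fold. The unshrunken log2 fold change of Nlrc5 was -0.29, with a 95% interval from 0.613-fold to 1.09-fold. The interval of H2-M3 ran from 0.741-fold to 1.24-fold, around an unshrunken log2 fold change of -0.06, or -0.08 by the other solution of the inversion.

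**Figure D2:**
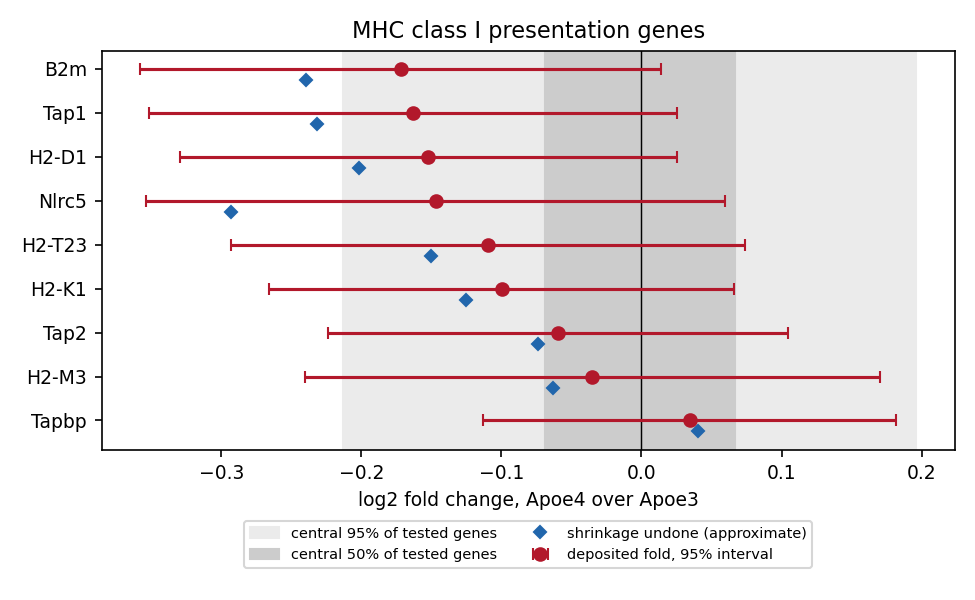
Log2 fold change, Apoe4 over Apoe3, of each of the 9 genes as deposited (circles, bars are 95% intervals from the deposited standard error) and with shrinkage undone by the solution with the smaller error (diamonds), over bands that hold the central 50% and 95% of all tested genes. Every interval of the 9 includes 0, and every circle lies inside the wider band.

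Transcript length moved with the folds of all genes, so each of the 9 was set beside genes of like length. All genes with a known length were divided into 10 bins by their longest transcript, and the median log2 fold change was -0.08 in the shortest bin and 0.06 in the longest. B2m, in the shortest bin at 860 bases, was at -0.17 and thus about 0.09 under a smooth curve of fold on length, its bin's lower quartile being -0.15. H2-K1 and H2-M3 both lay in the second bin, whose median was -0.06. Nlrc5, at 7578 bases in the longest bin, stood farthest from the curve, 0.21 below it on the log2 scale, and Tap1 was 0.18 below. With the curve for the test statistic subtracted, Nlrc5 had an unadjusted p of 0.0332 and an adjusted p of 0.588, and 7 of the 9 genes remained below 0. The exceptions were Tapbp and H2-M3.

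**Figure D3:**
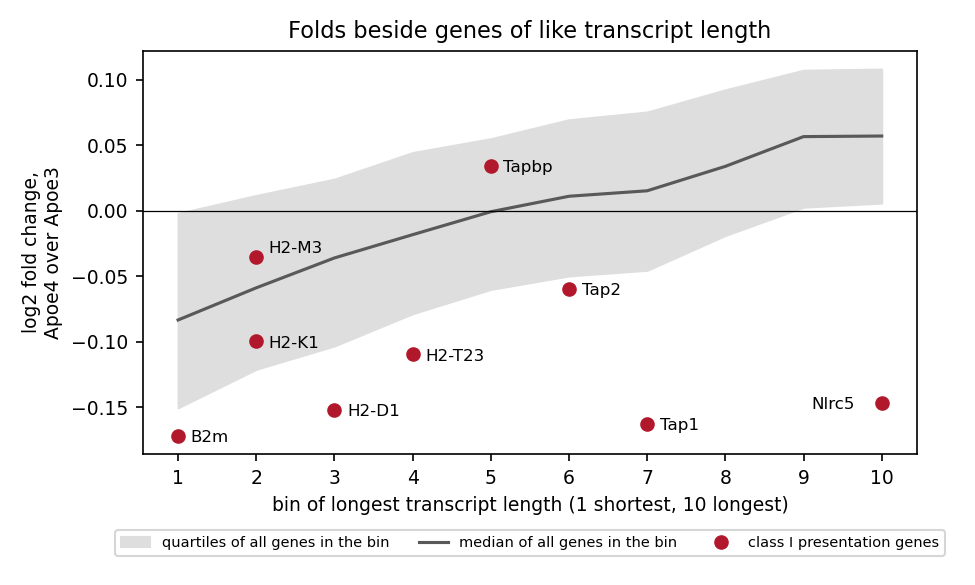
Log2 fold change, Apoe4 over Apoe3, against the bin of longest transcript length (1 shortest, 10 longest), with the median (line) and quartiles (band) of all tested genes in each bin and the 9 MHC class I presentation genes as points. B2m, H2-D1, H2-T23, Tap2, Tap1 and Nlrc5 lie under the band of their bin, Tapbp and H2-M3 above the median.

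The wider class I pathway was described by lists of genes. In the peptide loading complex, 7 genes, Tap1, Tap2 and Tapbp among them, were tested and none was called (none at an unadjusted p under 0.05, and 1, Calr, with the length trend removed). Calreticulin (Calr) and calnexin (Canx), chaperones that fold heavy chains, stood at 0.10 and 0.11 (adjusted p = 0.534 and 0.580) per the authors' deposited table, with Pdia3, the oxidoreductase of the complex, at 0.03 and the tapasin relative Tapbpl at 0.05 (adjusted p = 0.883 and 0.870). The list's median of 0.03 covered general chaperones above 0 and the TAP subunits below 0. Peptide trimming enzymes gave 0 calls of 7 tested and none at an unadjusted p under 0.05, with a median of 0.04. Among them Erap1, the aminopeptidase that trims class I peptides in the endoplasmic reticulum, was at 0.12 (adjusted p = 0.656) per the authors' deposited table.

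The immunoproteasome, whose inducible subunits replace those of the standard proteasome and favour class I peptides, is the usual source of these peptides in cells exposed to interferon. All 6 listed genes of the immunoproteasome and its activator were tested, with a median log2 fold change of -0.12, and none was called, 1 being below 0 at an unadjusted p under 0.05. With the length trend removed the median was -0.06 and 5 of the 6 were below 0, Psme2 standing at 0.06. Psmb9, a catalytic subunit whose start lies 225 bases from that of Tap1 on the opposite strand, had the smallest p, at -0.26 ± 0.11 (SE, unadjusted p = 0.0150, adjusted p = 0.349) per the authors' deposited table. Psmb8 and Psmb10, the other inducible catalytic subunits, were at -0.13 and -0.10 (adjusted p = 0.711 and 0.776) and the activator subunit Psme1 at -0.16 (adjusted p = 0.504) per the authors' deposited table. The constitutive counterparts Psmb5, Psmb6 and Psmb7 stood at -0.18, -0.15 and -0.09 (adjusted p = 0.497, 0.557 and 0.730) per the authors' deposited table. Inducible and constitutive subunits thus lay on the same side of 0, and the difference between them was not tested.

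Transcription factors of class I genes lay on both sides of 0. Of 15 tested, none was called, 2 were above 0 and 1 below 0 at an unadjusted p under 0.05, and the median was -0.01. With the length trend removed none was above 0 and 1, Nlrc5, was below 0 at that threshold. Creb1, which binds the X2 box, was at 0.20 (unadjusted p = 0.0103, adjusted p = 0.305) per the authors' deposited table. Nfyc, a subunit of the Y box factor NF-Y, was at -0.17 (unadjusted p = 0.0321, adjusted p = 0.438) per the authors' deposited table. Among the partners of NLRC5, Rfx5 stood at 0.03, Rfxap at -0.12 and Rfxank at -0.01 (adjusted p from 0.646 to 0.985) per the authors' deposited table.

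Interferon response genes had a median of 0.01 over 26 tested. None was called, and 1, the GTPase Igtp at -0.21 (adjusted p = 0.452) per the authors' deposited table, had an unadjusted p under 0.05, which it did not keep with the length trend removed. Of the 26, 12 were below 0 and 14 above. Removing the length trend left 8 of the 26 below 0, with a median of 0.03. The part of interferon in the class I values was not tested. In the interferon gamma receptor list the median was 0.00 over 7 tested, with none called and 1 at an unadjusted p under 0.05. Ifngr2, a receptor chain, was at -0.11, and Jak1, a receptor kinase, at 0.07 (adjusted p = 0.689 and 0.726) per the authors' deposited table.

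MHC class II genes, which present peptides from outside the cell and are typical of dendritic cells, B cells and macrophages, had a median farther below 0. Of 10 tested none was called, 7 were below 0 at an unadjusted p under 0.05, and the median was -0.22. Removing the length trend left a median of -0.18 and 5 genes below 0 at that threshold. Cd74, the invariant chain, was at -0.31, H2-Eb1 at -0.32 and H2-Aa at -0.32 (adjusted p = 0.0586, 0.0692 and 0.0829) per the authors' deposited table. For these genes, in the same order, the adjusted p was 0.313, 0.292 and 0.0968 with the length trend removed. Ciita, the class II activator of the same protein family as NLRC5, was at -0.20 (adjusted p = 0.485) per the authors' deposited table. The difference between the class I and class II genes was not tested.

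**Figure D4:**
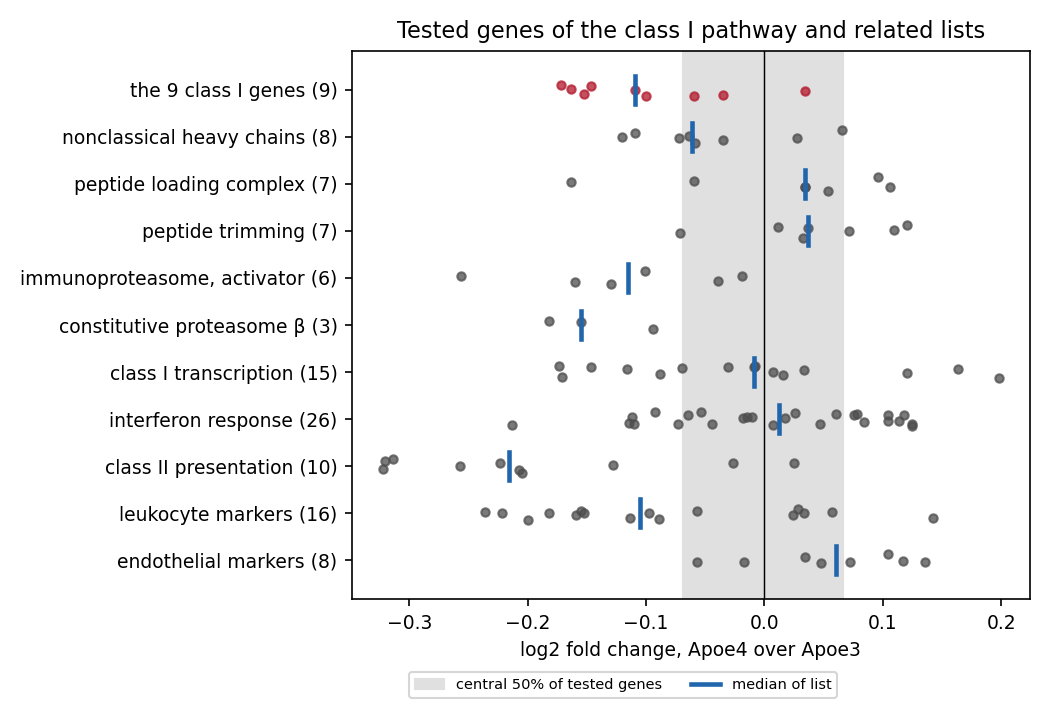
Log2 fold change, Apoe4 over Apoe3, of every tested gene (points) in 11 lists, with the median of each list (blue bar), the number tested in brackets and a band that holds the central 50% of all tested genes. The median of the 9 class I genes is -0.11, that of class II genes -0.22 and that of interferon response genes 0.01.

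Markers of leukocytes, which carry much class I and class II RNA, also had a median below 0. Of 17 listed markers 16 were tested, 11 were below 0, none was called, 4, Cd79a, Cd52 and Aif1 among them, were below 0 at an unadjusted p under 0.05, and the median was -0.11. With the length trend removed the median was -0.06 and 1 marker was below 0 at that threshold. Cd79a, of B cells, was at -0.20 and Cd52, of lymphocytes and myeloid cells, at -0.24, whereas the general leukocyte marker Ptprc was at 0.02 and Lyz2, of macrophages, at 0.03 (adjusted p = 0.392, 0.409, 0.958 and 0.940) per the authors' deposited table. The T cell marker Cd3e had a mean normalized count of 14.7 in the authors' deposited table, and Nkg7, of killer cells, was under the filter. The summed mean of the 16 markers was 6954, of which Lyz2 made up 4618. Endothelial markers, of another cell type rich in class I, had a median of 0.06 over 8 tested (0.02 with the length trend removed), with none called and none at an unadjusted p under 0.05. Of 10 olfactory epithelium markers 1 was called, Cbr2 of sustentacular cells, which was lower in Apoe4 at -0.26 (adjusted p = 0.0421) per the authors' deposited table, and the list's median was -0.01. With the length trend removed Cbr2 was at -0.18 and no longer called (adjusted p = 0.306). In whole tissue, fewer cells of a type and less RNA per cell cannot be told apart, and the part of cell makeup in the class I values was not tested.

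Of the 9 genes, 7 lie in the H2 complex, the mouse MHC, on chromosome 17. Between Tapbp and H2-M3, from 33919478 to 37274485, 131 genes were tested, and their median log2 fold change was -0.02, with 77 below 0. The authors' test called 1 of the 131, Trim10, an erythroid gene at -0.47 (adjusted p = 2.62e-06) per the authors' deposited table. The 106 tested genes of the interval outside the antigen presentation lists had a median of -0.01, against -0.10 for the 7 class I genes and -0.22 for 7 class II genes in it. With the length trend removed these medians were 0.0066, -0.06 and -0.18. Among the 106 was H2-K2, a transcribed class I pseudogene in none of the lists, named after its value was seen, with a mean normalized count of 37.7 and a log2 fold change of -0.35 ± 0.10 (SE, unadjusted p = 0.000446, adjusted p = 0.0547) per the authors' deposited table. With the length trend removed H2-K2 was at -0.29 (adjusted p = 0.267). B2m on chromosome 2 and Nlrc5 on chromosome 8, outside the complex, stood at -0.17 and -0.15.

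**Figure D5:**
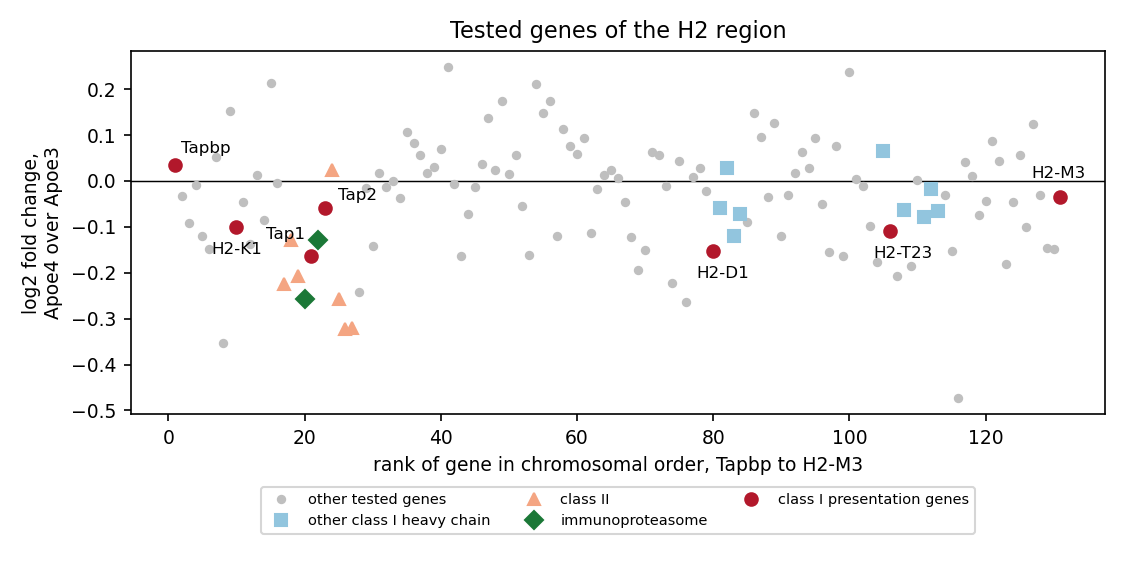
Log2 fold change, Apoe4 over Apoe3, of the 131 tested genes from Tapbp to H2-M3 by their rank in chromosomal order, with class I presentation genes, other class I heavy chains, class II genes and immunoproteasome genes marked. The class II and immunoproteasome genes around Tap1 lie between -0.32 and -0.13, apart from H2-Ob just above 0, and the class I genes between -0.16 and 0.03.

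Approximate library sizes, from the summed means and the size factors read off single-read genes, ran from 14900000 to 20100000 assigned reads, and the size factors overlapped, from 0.891 to 1.16 in Apoe4 and from 0.859 to 1.14 in Apoe3. Log2 fold changes of the Y-linked genes Eif2s3y, Uty, Ddx3y and Kdm5d were -3.72, -3.53, -3.50 and -2.80 per the authors' deposited table. The X inactivation RNA Xist had a log2 fold change of 6.41, and the authors' deposited table gives no p for it. Sex makeup thus differed between the groups, with the larger female share in Apoe4. The labels give no sex for single libraries, so sex and allele could not be told apart. The part of sex in the class I values was not tested. Omp, the marker of mature olfactory neurons, had a mean normalized count of 113676 in the authors' deposited table.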

How the data were processed

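Libraries of 6 Apoe4 and 4 Apoe3 mice were processed with STAR, featureCounts and DESeq2 on GRCm38, per the submitters' processing notes. No source used here gives versions, settings or annotation. Deposited by the authors was a single table of gene-level results: a mean signal (counts divided by size factors, averaged over all 10 libraries), log2 fold changes with standard errors, a Wald score, p-values and adjusted p-values. The table has no values for single libraries, so the authors' own test was used throughout, with a threshold of 0.05 on the Benjamini-Hochberg adjusted p over all 16050 tested genes. The table names no direction. Means of genes with 1 read in 1 library fell at 10 levels, and the fold was positive at 6 of them and negative at 4, matching the 6 Apoe4 and 4 Apoe3 libraries, so a positive fold is higher in Apoe4.

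The ceiling of 0.105 on the standard error is that of a fit with a normal prior, and the relation between error and fold under that prior was inverted, taking the solution with the smaller unshrunken error. The inversion was checked on simulated counts only for genes with a mean over 100 and an error clear of the ceiling. That leaves out H2-M3 and Nlrc5. The simulated fit used the same kind of prior that the inversion assumes. The check therefore cannot show that the deposited folds were made that way, or which solution holds for them. Group levels were derived from the mean and the unshrunken fold. A lowess curve (fraction 0.3, statsmodels 0.14.6) on log2 longest transcript length from GENCODE vM21 covered 96.6% of tested genes. Positions and promoters are RefSeq's for GRCm38.p6. All lists and members were chosen with earlier results of these data known. Named genes were the members and, of each list, any past an adjusted p of 0.05 and otherwise up to 4 with the smallest p, plus genes that a count of 5 or fewer refers to. Tapbpl, Pdia3, Rfx5, Rfxap, Rfxank, Ciita, Ptprc, Lyz2, Cd3e, Nkg7, Cd8a and Cd8b1 fall outside this rule and were named after their values were seen. Some genes that this rule covers are not reported here.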

Additional observations from a re-analysis of the deposited data

How the results depend on the processing

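None of the 9 class I genes was called under any of the 7 alternatives run: no filter on low genes, only genes with a mean of at least 100, the length trend removed, no X and Y genes, unshrunken folds, a test against a fold of 1.2, and Benjamini-Yekutieli adjustment. Not all of these could have given a call. Unshrunken folds kept the deposited adjusted p, and the test against a fold of 1.2 and Benjamini-Yekutieli adjustment could only raise it. At a mean of at least 100, 7 of the 9 were left, without H2-M3 and Nlrc5. The lowest adjusted p of any of the 9 over the alternatives was 0.478. Only removal of the length trend could change a direction, as the other alternatives kept the sign of the deposited fold by construction. With it removed the direction held for 8 of the 9, and H2-M3 stood at a log2 fold change of 0.032 (adjusted p = 0.976). The median of the 9 was -0.11, -0.09 with the length trend removed and -0.15 unshrunken. Over the whole table, 125 genes were called, 20 against a fold of 1.2 and 67 with Benjamini-Yekutieli adjustment. No paired analysis was possible because the deposited table holds no values per library, and leaving out replicates was not run for the same reason. H2-M3 and Nlrc5 had the lowest means of the 9, under 60, and the largest standard errors.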

Other observations

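Class I heavy chains of vomeronasal sensory neurons, the H2-M10 group and its neighbours H2-M1, H2-M9 and H2-M11, were mostly near the limit of detection. Of 9 genes, 3 passed the filter on low genes, and none of the 3 was called (none at an unadjusted p under 0.05). H2-M10.3 had a mean normalized count of 75.9 and a log2 fold change of -0.08, H2-M10.6 a mean of 65.8 and -0.07, and H2-M10.5 a mean of 11.2 and -0.02 (adjusted p = 0.840, 0.875 and 0.958) per the authors' deposited table. The other 6 had means from 0.101 for H2-M10.1 to 2.63 for H2-M1. Whether these reads come from vomeronasal tissue in the samples was not tested.

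Among 18 nonclassical heavy chains, 8 were tested, 6 of them below 0, and none was called (none at an unadjusted p under 0.05). The 18 include H2-T23 and H2-M3. The 2 above 0 were H2-Q4, with a mean of 344 and a log2 fold change of 0.03, and H2-T24, with a mean of 63.3 and 0.07 (adjusted p = 0.9502 and 0.875) per the authors' deposited table. H2-Q6, H2-Q7, H2-Q8, H2-Q9, H2-T9 and H2-T22 were listed at 0 there. H2-Q7 and H2-Q6 shared 9.68% and 5.99% of their 150-base words with another gene, and H2-T22 0.931%.

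Class I-like molecules stood slightly above 0, with a median of 0.03 over 7 tested, none called and none at an unadjusted p under 0.05. Mr1, which presents vitamin metabolites to innate-like T cells, had a mean of 839 and a log2 fold change of 0.09, and Mill2 a mean of 45.2 and 0.15 (adjusted p = 0.746 and 0.628) per the authors' deposited table. Hfe, the class I-like regulator of iron uptake, was at -0.10 there (adjusted p = 0.738). Of 9 genes listed under class I receptors, 3 passed the filter and none was called. Among the 3, 1, Lilrb4a, had an unadjusted p under 0.05, at -0.21 (adjusted p = 0.420) per the authors' deposited table. Whether the product of each listed gene, Lilrb4a included, binds class I molecules was not checked. Pirb, a class I receptor of myeloid cells and neurons, was at 0.01 (adjusted p = 0.982), and Cd8a and Cd8b1, of CD8+ T cells, had means of 3.60 and 2.64 in the authors' deposited table.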
